A study of Mus musculus with 6 samples.

Results

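The genes described here encode the machinery of fatty acid oxidation and ketone body metabolism, and they were followed in mouse jejunum, the stretch of small intestine between duodenum and ileum. The set of 33 genes was a named list, and every probe set whose platform annotation names exactly one of them was taken. Of the 33 genes, 32 were on the array with such a probe set, among 18193 genes named in this way, and Ucp2 was not analysed here. The 32 genes were covered by 60 probe sets, of which 55 were bright enough to be tested, and each gene is represented by whichever of its probe sets was brightest on average.

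RNA came from 3 double knockout mice (dKO, mice 1, 2 and 3) that lack TIS7 (Ifrd1) and SKMc15 (Ifrd2), a pair of related transcriptional regulators, and from 3 wild type mice (WT, mice 1, 3 and 4). All were male C57BL/6 mice of 7 to 10 weeks, caged alone and fed a synthetic diet with 42% of its energy from milk fat and 0.2% from cholesterol, and tissue was taken after 3 weeks of that diet. There was no group on ordinary chow, so each difference is between genotypes on the same rich diet, and the labels do not name a cell type or promoter that limits the deletion. Affymetrix arrays, 1 per mouse, gave log2 levels. Both targeted transcripts were far lower in the labelled knockouts, with Ifrd2 at 2.59 to 2.74 in dKO and 8.20 to 8.61 in WT mice and Ifrd1 at 4.80 to 6.27 in dKO and 9.84 to 10.00 in WT mice. The deleted exons are not stated in the labels, and how these probe sets lie relative to them was not checked.

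Fatty acids that reach the mitochondrion are first joined to carnitine, carried across the inner membrane, and then shortened in a repeated cycle of dehydrogenation, hydration, a second dehydrogenation and thiolysis that releases acetyl-CoA. Peroxisomes run a related cycle with their own enzymes on very long and branched chains and pass the shortened products on to mitochondria as carnitine esters. Acetyl-CoA can be turned into ketone bodies, and many genes of all these steps are targets of the nuclear receptor PPAR alpha, which binds fatty acids. The enterocyte, the absorptive cell of the villus, uses only part of the fat it takes up in this way, and most leaves the cell in chylomicrons.

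In 6 of 8 peroxisomal genes and in 7 of the 24 other genes of the set, every dKO mouse lay below every WT mouse, and the difference between these shares was not tested. The median of the peroxisomal genes, given below, was added after the values were seen and is a description only. Crot, which makes carnitine esters of the medium-chain products of peroxisomal oxidation, fell in dKO jejunum to 0.712 of its WT level and was the only member past the threshold (limma adjusted p = 0.0428). In all, 1 of 32 members was lower, 0 were higher and 31 did not pass, where 1.93% of the 18013 tested probe sets were lower, 2.54% higher and 4.47% either by the same limma threshold, an adjusted p no greater than 0.05. With an unadjusted limma p under 0.05 there were 8 members lower and 0 higher, and 11.8% of all tested probe sets were lower by that rule. In 13 of 32 members every dKO value lay below every WT value and in 0 above, where the share of all tested probe sets was 14.8% below and 19.5% above. The median log2 fold change was -0.13 over the 32 members and 0.03 over all tested probe sets, and 27 members against 46.4% of all tested probe sets had a negative value. The genes were read in bulk tissue, in which fewer cells of a type and less RNA per cell cannot be told apart.

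**Figure D1:**
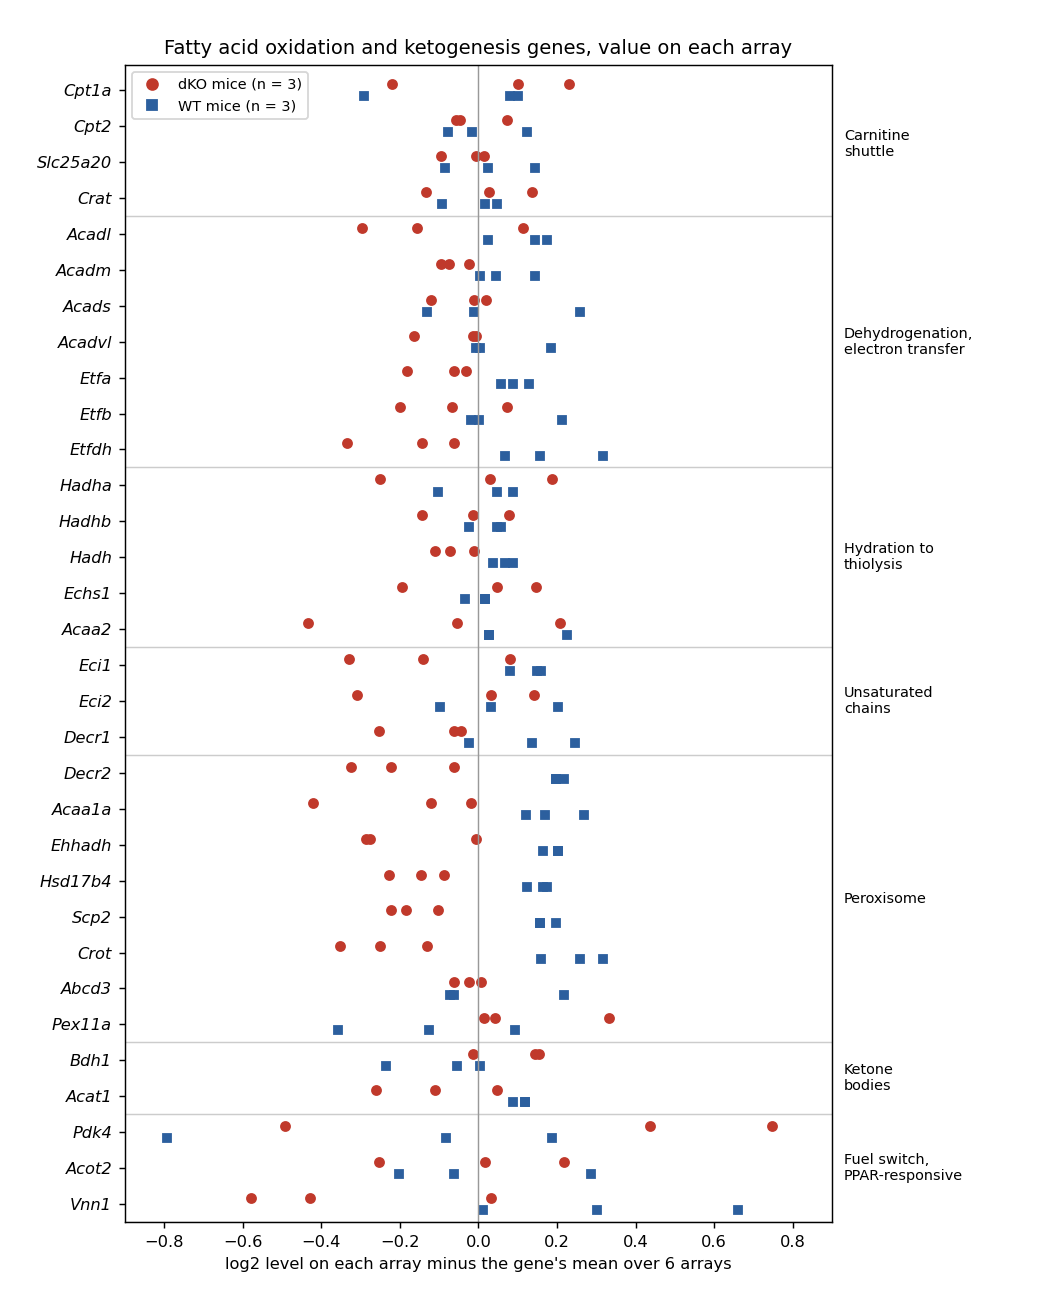
Each row is 1 gene, and points are the log2 level on each array minus the gene's mean over the 6 arrays (circles, 3 dKO mice; squares, 3 WT mice). In the peroxisomal block the circles lie left of the squares for 6 of 8 genes, and the carnitine shuttle genes overlap for 4 of 4. Each gene is shown by its brightest probe set only.

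The 8 peroxisomal members comprise enzymes of the oxidation cycle, a carnitine acyltransferase and a pair of membrane proteins. In 6 of them (Crot, Decr2, Ehhadh, Acaa1a, Hsd17b4 and Scp2) the groups did not overlap, all with lower dKO values, where 14.8% of all tested probe sets were separated in that direction. The median log2 fold change of the 8 genes was -0.36. Crot had log2 levels of 10.68, 10.80 and 10.58 in dKO mice 1, 2 and 3, against 11.19, 11.09 and 11.25 in WT mice 1, 3 and 4, a difference of -0.49 ± 0.09 (SE). The highest dKO mouse, mouse 2, lay below the lowest WT mouse, mouse 3. The Crot call was lost in each of the 6 fits that left out 1 mouse, where the change stayed between -0.55 and -0.44 and the smallest limma adjusted p was 0.0545, and it was lost with a covariate for RNA quality, the 3′ minus 5′ signal of Gapdh and Actb (-0.37 ± 0.11, adjusted p = 0.23) and without the filter on dim probe sets (limma adjusted p = 0.0678).

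The other separated peroxisomal genes did not pass the threshold. Decr2, a dienoyl-CoA reductase for unsaturated chains, had 8.28, 8.38 and 8.54 in dKO and 8.80, 8.82 and 8.80 in WT mice (-0.41 ± 0.09, limma adjusted p = 0.0586). Scp2, whose gene encodes both a peroxisomal thiolase and a sterol carrier protein, had 12.87, 12.95 and 12.83 in dKO and 13.25, 13.21 and 13.21 in WT mice (-0.34 ± 0.08, limma adjusted p = 0.0602). In both genes the 3 WT mice lay close together and the dKO mice stood apart below them. Hsd17b4, the bifunctional enzyme of branched and very long chains, had 11.77, 11.85 and 11.91 in dKO and 12.17, 12.12 and 12.16 in WT mice (-0.31 ± 0.08, limma adjusted p = 0.0751). Ehhadh, the other peroxisomal bifunctional enzyme and a classical PPAR alpha target, had 10.45, 10.73 and 10.46 in dKO and 10.90, 10.94 and 10.94 in WT mice (-0.38 ± 0.10, limma adjusted p = 0.0786). Mouse 2 was the highest dKO mouse for Crot, Scp2 and Ehhadh, and mouse 3 was the highest for Decr2 and Hsd17b4. Acaa1a, a peroxisomal thiolase, had 9.24, 8.94 and 9.34 in dKO and 9.53, 9.48 and 9.63 in WT mice (-0.37 ± 0.12, limma adjusted p = 0.119). Acaa1a lies on the chromosome of Ifrd2 with 160 protein-coding genes between them. Its probe set, like that of Hsd17b4, is of a kind whose probes can also match other transcripts. The close relative Acaa1b, measured on its own probe set, overlapped between groups (-0.25 ± 0.19, limma adjusted p = 0.432). Acaa1b is given because of that likeness. The dimmer probe set of Hsd17b4 was separated and lower in dKO (-0.20 ± 0.10, limma adjusted p = 0.234). That of Acaa1a overlapped between the groups (-0.13 ± 0.09, limma adjusted p = 0.406).

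The calls among these genes depended on how the fit treated variance and dim probe sets. When the prior variance was allowed to follow the expression level, 5 members passed limma, all lower (Crot, Decr2, Ehhadh, Hsd17b4 and Scp2). With only probe sets above 6 on at least 3 arrays, 4 passed, all lower (Crot, Decr2, Hsd17b4 and Scp2). The count of all probe sets called lower rose as well, from 347 to 727 with the variance trend and to 506 with the stricter filter. The median of the 8 peroxisomal genes, a result added after the values were seen, stayed between -0.36 and -0.33 when any 1 mouse was left out.

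The membrane proteins of the peroxisome overlapped between the groups. Abcd3, a transporter that brings acyl-CoA into the peroxisome, had 12.30, 12.23 and 12.27 in dKO and 12.22, 12.51 and 12.23 in WT mice, a difference of -0.06 with a 95% interval of -0.30 to 0.19. Pex11a, which promotes division of peroxisomes and is inducible by PPAR alpha ligands, had 10.17, 10.20 and 10.49 in dKO and 9.80, 10.25 and 10.03 in WT mice, a difference of 0.26 with a 95% interval of -0.09 to 0.61. Its other tested probe set gave 0.23.

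**Figure D2:**
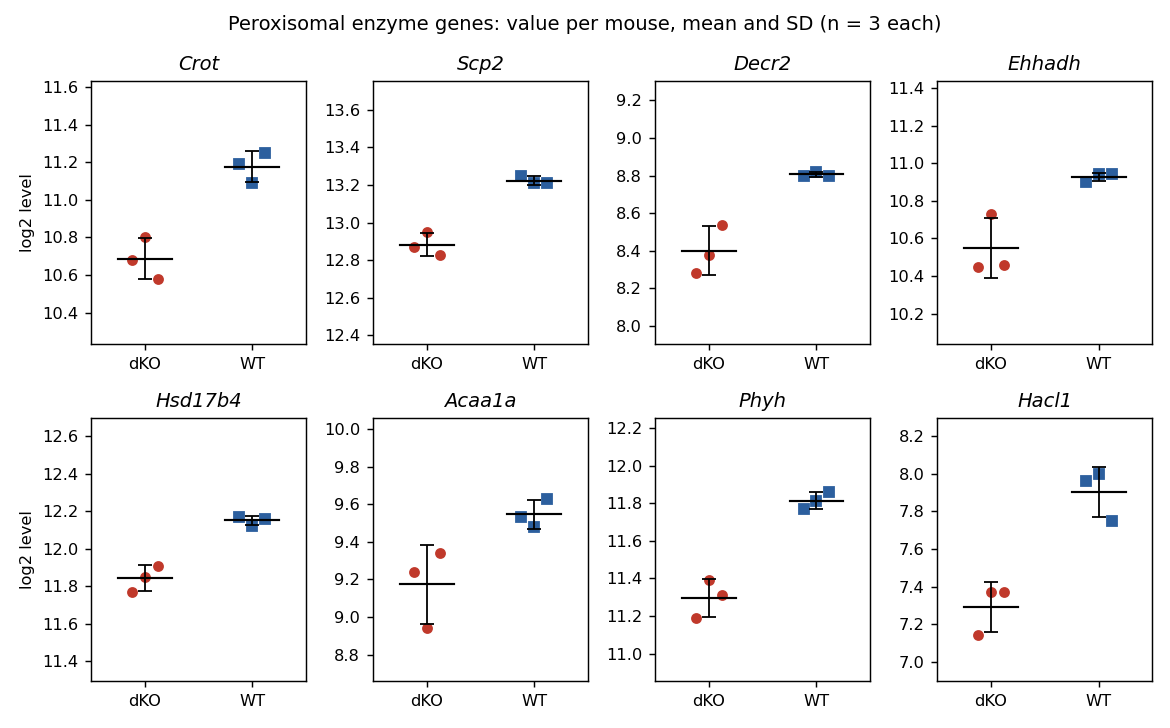
Log2 level in each mouse of 6 peroxisomal genes of the set and of Phyh and Hacl1 (points), with the group mean and SD (n = 3 each, dKO left, WT right). All panels span the same log2 range. Only genes with separated groups are shown, so in each the highest dKO value lies below the lowest WT value. For Crot these are 10.80 in dKO and 11.09 in WT. The peroxisomal members Abcd3 and Pex11a, whose groups overlapped, are not shown.

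The promoters of Crot and 3 more of the separated peroxisomal members are shown because these genes lay lower together. They are RefSeq windows on GRCm38.p6 of 250 bases before to 50 bases after the start of the gene, and capitals mark AGGTCA, a hexamer bound by many nuclear receptors, on either strand. Crot is at chr5:8997097-8997396, Scp2 at chr4:108118498-108118797, Decr2 at chr17:26090115-26090414 and Ehhadh at chr16:21787785-21788084, all on the minus strand.
Crot: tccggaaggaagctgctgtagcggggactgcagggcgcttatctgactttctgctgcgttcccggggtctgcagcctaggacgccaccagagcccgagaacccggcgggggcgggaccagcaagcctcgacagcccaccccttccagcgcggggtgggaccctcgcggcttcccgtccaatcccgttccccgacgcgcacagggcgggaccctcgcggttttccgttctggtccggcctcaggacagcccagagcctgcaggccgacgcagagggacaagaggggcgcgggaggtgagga
Scp2: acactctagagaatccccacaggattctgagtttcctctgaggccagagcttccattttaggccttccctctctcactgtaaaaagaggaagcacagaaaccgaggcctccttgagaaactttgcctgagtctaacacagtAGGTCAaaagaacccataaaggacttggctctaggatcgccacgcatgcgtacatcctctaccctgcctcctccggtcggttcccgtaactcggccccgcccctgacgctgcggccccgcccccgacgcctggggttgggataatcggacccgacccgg
Decr2: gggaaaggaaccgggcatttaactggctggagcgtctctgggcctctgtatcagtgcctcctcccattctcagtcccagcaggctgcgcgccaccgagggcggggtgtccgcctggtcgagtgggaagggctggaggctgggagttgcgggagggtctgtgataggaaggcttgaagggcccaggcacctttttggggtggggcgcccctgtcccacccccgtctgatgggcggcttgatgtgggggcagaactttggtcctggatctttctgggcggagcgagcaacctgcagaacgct
Ehhadh: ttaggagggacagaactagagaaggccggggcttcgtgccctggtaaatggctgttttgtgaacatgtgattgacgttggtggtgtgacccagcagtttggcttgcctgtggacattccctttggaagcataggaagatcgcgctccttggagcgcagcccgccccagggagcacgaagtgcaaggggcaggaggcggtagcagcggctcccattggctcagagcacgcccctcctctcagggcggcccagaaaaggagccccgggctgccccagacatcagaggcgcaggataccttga
Scp2 alone of these 4 held the hexamer, with its first base 109 bases before the start. Windows were given for 26 of the 32 members (28 windows), and 5 genes (Acadm, Acadvl, Cpt1a, Echs1 and Scp2) held AGGTCA, against 16.3% of all 32851 promoter windows. A direct repeat of AGGNCA with 1 base between the copies, searched on both strands and overlapping AGGTCA where the N is T, was in 0 of the 28 windows and in 0.381% of all windows. Regulatory sites farther from the start were not searched.

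Genes of the carnitine shuttle, which admits long chains to the mitochondrion, overlapped between the groups in 4 of 4 cases on their brightest probe sets. Cpt1a, the rate-limiting carnitine palmitoyltransferase of the outer membrane, had 9.85, 10.30 and 10.17 in dKO and 10.15, 10.17 and 9.78 in WT mice, a difference of 0.07 with a 95% interval of -0.31 to 0.45. Slc25a20, the translocase of the inner membrane, had 11.16, 11.25 and 11.27 in dKO and 11.28, 11.40 and 11.17 in WT mice, a difference of -0.06 with a 95% interval of -0.28 to 0.16. Slc25a20 lies on the chromosome of Ifrd2 with 45 protein-coding genes between them. Cpt2, which reverses the carnitine transfer inside, and Crat, which acts on acetyl groups, differed by -0.02 and 0.02, with 95% intervals of -0.24 to 0.20 and -0.22 to 0.26. Dimmer probe sets of Slc25a20 (-0.28 ± 0.10, limma adjusted p = 0.149) and Cpt1a (-0.34 ± 0.15, limma adjusted p = 0.209) were separated and lower in dKO. The other tested probe sets of Cpt1a and Crat overlapped between the groups.

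Among the acyl-CoA dehydrogenases and their electron acceptors all 7 fold changes were negative, with a median of -0.13, and 0 passed (1 at an unadjusted limma p under 0.05). The largest difference was in Etfdh, which hands electrons from all these dehydrogenases to ubiquinone. It had 10.02, 10.29 and 10.21 in dKO and 10.67, 10.42 and 10.51 in WT mice, without overlap (-0.36 ± 0.11, limma adjusted p = 0.108). Etfa, a subunit of the flavoprotein that feeds it, had 11.74, 11.89 and 11.86 in dKO and 12.05, 11.98 and 12.01 in WT mice (-0.18 ± 0.08, limma adjusted p = 0.207). Etfa lies on the chromosome of Ifrd2 with 422 protein-coding genes between them. The partner subunit Etfb overlapped between the groups (-0.13 ± 0.11, limma adjusted p = 0.485).

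Acadm, the medium-chain dehydrogenase, had 11.52, 11.54 and 11.59 in dKO and 11.62, 11.76 and 11.66 in WT mice (-0.13 ± 0.08, limma adjusted p = 0.337). Acadvl, the very-long-chain enzyme, had 11.41, 11.57 and 11.56 in dKO and 11.57, 11.76 and 11.58 in WT mice (-0.12 ± 0.10, limma adjusted p = 0.449). The Acadm groups were apart, and those of Acadvl all but touched. Acadl and Acads, for long and short chains, overlapped between the groups, at -0.23 ± 0.12 and -0.07 ± 0.12 (limma adjusted p 0.277 and 0.719).

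The enzymes that complete the mitochondrial cycle had a median of -0.06 over 5 genes and 0 past the threshold by limma at an adjusted p of 0.05 or at an unadjusted p under 0.05. Hadh, the hydroxyacyl-CoA dehydrogenase of shorter chains, had 13.61, 13.57 and 13.67 in dKO and 13.72, 13.75 and 13.77 in WT mice, without overlap (-0.13 ± 0.08, limma adjusted p = 0.327). Acaa2, the mitochondrial thiolase, had 11.49, 11.87 and 12.13 in dKO and 11.95, 12.15 and 11.95 in WT mice, with overlap (-0.19 ± 0.17, limma adjusted p = 0.509). Dimmer probe sets of both genes gave larger differences, down to -0.51 for Hadh and -0.61 for Acaa2. The brightest probe sets of Hadh and Acaa2 are, like that of Acaa1a, of kinds whose probes can also match other transcripts. The subunits of the trifunctional protein, Hadha and Hadhb, differed by -0.02 and -0.06, and the hydratase Echs1 had means of 10.22 in dKO and 10.23 in WT mice, with a 95% interval of the difference of -0.26 to 0.26.

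Unsaturated chains need isomerases and a reductase before they can enter the cycle. Decr1, the mitochondrial dienoyl-CoA reductase, had 11.01, 11.20 and 11.22 in dKO and 11.24, 11.40 and 11.51 in WT mice, without overlap (-0.24 ± 0.11, limma adjusted p = 0.21). Eci1, the mitochondrial isomerase, had 9.86, 10.27 and 10.05 in dKO and 10.27, 10.34 and 10.35 in WT mice (-0.26 ± 0.12, limma adjusted p = 0.214). By the brightest probe set of each gene, dienoyl-CoA reductase was therefore lower without overlap in both its mitochondrial and its peroxisomal form. Neither was past the threshold, and the dimmer probe set of Decr1 overlapped between the groups (-0.33 ± 0.14, limma adjusted p = 0.185). Eci2, an isomerase found in both organelles, overlapped widely, at -0.09 with a 95% interval of -0.43 to 0.25.

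**Figure D3:**
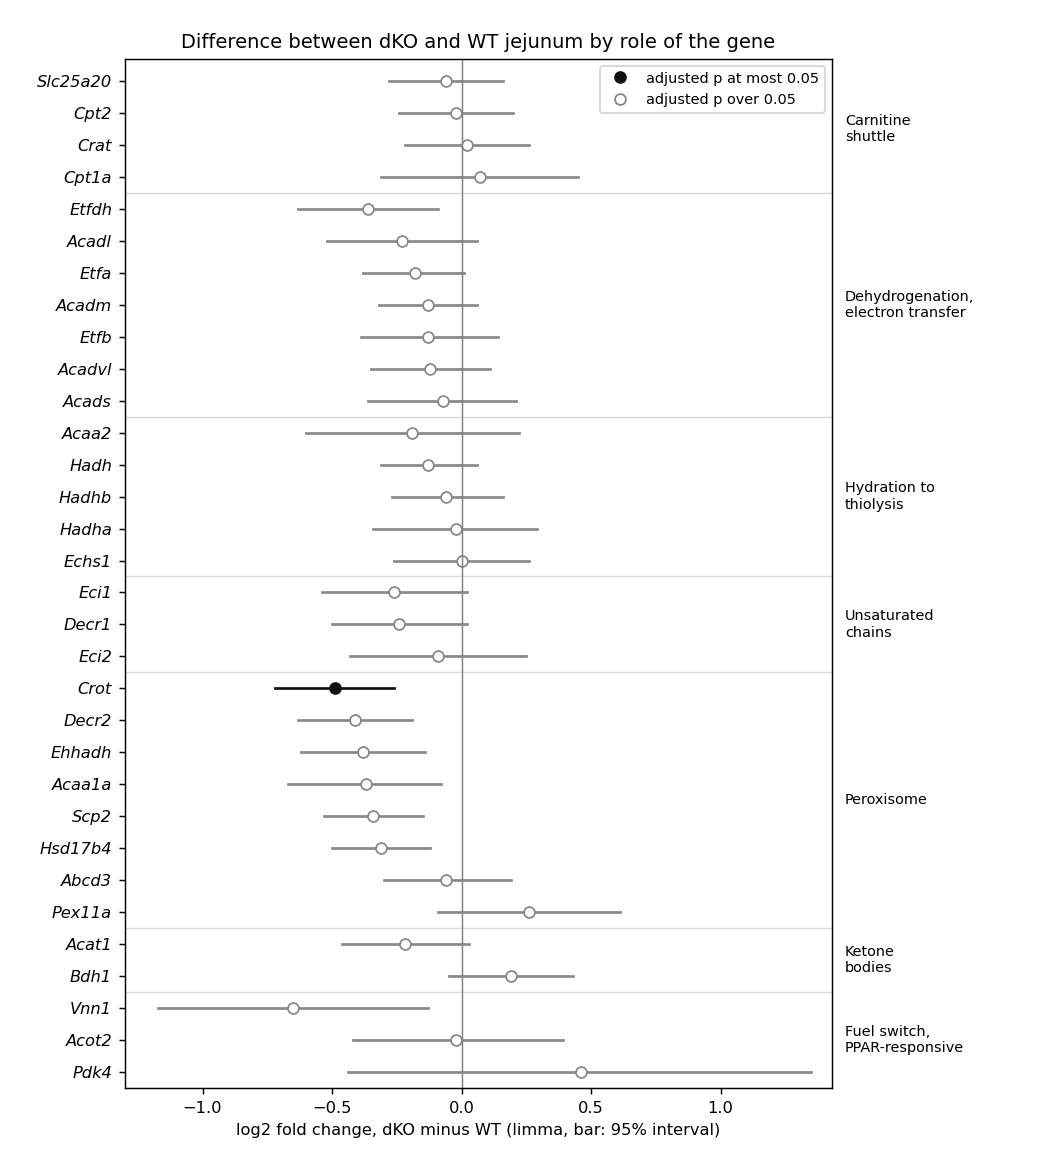
Log2 fold change of each gene (dKO minus WT, limma) with its 95% interval, grouped by role and sorted within it. The filled point is Crot at -0.49, the only gene past the adjusted threshold, and 27 of the 32 estimates lie left of 0.

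The ketone body genes of the set did not pass. Bdh1, which interconverts the ketone bodies acetoacetate and hydroxybutyrate, had 10.84, 11.01 and 11.00 in dKO and 10.62, 10.80 and 10.86 in WT mice (0.19 ± 0.10, limma adjusted p = 0.27). Acat1, the mitochondrial acetoacetyl-CoA thiolase, had 11.29, 11.44 and 11.60 in dKO and 11.64, 11.67 and 11.67 in WT mice (-0.22 ± 0.10, limma adjusted p = 0.224). On these brightest probe sets the Bdh1 groups overlapped and the Acat1 groups did not. The second brightest probe set of Acat1 overlapped between the groups (-0.18 ± 0.11, limma adjusted p = 0.337). Its dimmest was separated and lower in dKO (-0.40 ± 0.15, limma adjusted p = 0.151). Acat1 lies on the chromosome of Ifrd2 with 450 protein-coding genes between them.

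The remaining members respond to PPAR alpha in other tissues and their fold changes had both signs. Vnn1, a pantetheinase, had 10.90, 10.44 and 10.29 in dKO and 11.53, 10.88 and 11.17 in WT mice, the largest fold change of the set but with overlap (-0.65 ± 0.22, limma adjusted p = 0.121). Its other probe set gave -0.70 ± 0.22 (SE) and was separated between the groups (limma adjusted p = 0.114). Pdk4, the kinase that closes pyruvate dehydrogenase when fat is burned, had 8.70, 9.63 and 9.94 in dKO and 8.40, 9.38 and 9.11 in WT mice, and varied most among mice of one genotype (SD 0.64 in dKO and 0.51 in WT, n = 3 each). Its difference of 0.46 had a 95% interval of -0.44 to 1.35. Acot2, a mitochondrial acyl-CoA thioesterase, differed by -0.02 with a 95% interval of -0.42 to 0.39.

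Mouse 1 of the dKO group had the lowest value of all 6 mice in 20 of the 32 members, and in 17 of the 24 members outside the peroxisomal role. The median log2 fold change of those 24 was -0.10 with all mice, -0.03 without dKO mouse 1 and -0.05 without WT mouse 3. That of the 8 peroxisomal members was -0.36 with all mice, -0.33 without dKO mouse 1 and -0.36 without WT mouse 3. Over all 32 members the median of -0.13 was -0.07 without dKO mouse 1 and -0.08 without WT mouse 3.

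Where a gene had several tested probe sets, they did not always give the same direction. Of 15 such members, 10 had probe sets of one sign and 5 did not (Bdh1, Cpt1a, Crat, Hadhb and Scp2). Scp2 had 4 tested probe sets, and the dimmest of them fell with 7.35, 7.31 and 7.11 in dKO and 7.91, 8.00 and 8.42 in WT mice (-0.85 ± 0.15, limma adjusted p = 0.0369). The remaining ones stood at -0.34, -0.32 and 0.07. Of the 55 tested probe sets of the set, 2 were called lower and 0 higher by limma, those of Crot and this dim one of Scp2. The shares over all tested probe sets were 1.93% lower and 2.54% higher. With the second brightest probe set in place of the first where there was one, the peroxisomal median was -0.26.

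**Figure D4:**
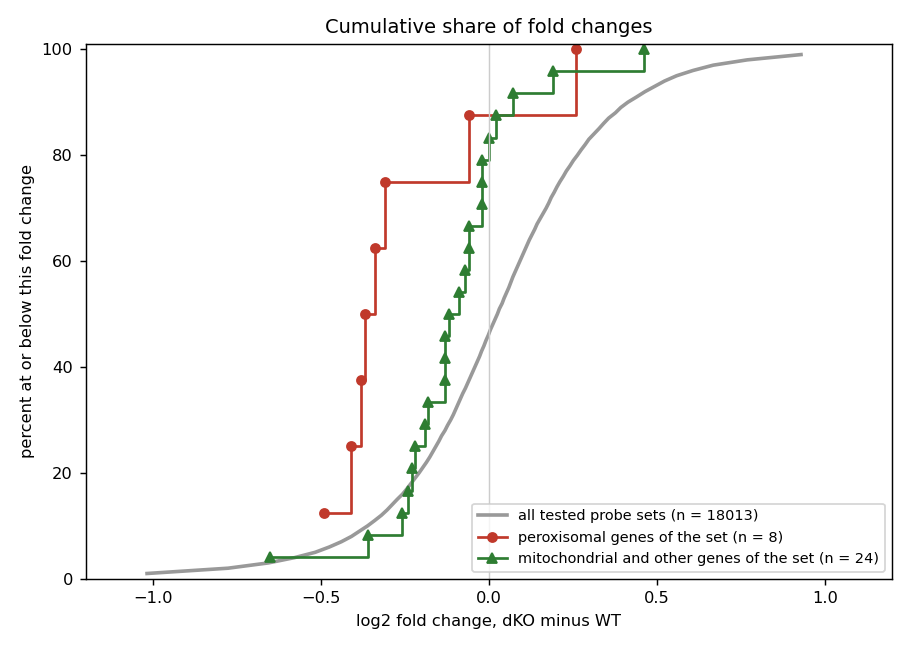
Cumulative share of genes (percent) against the log2 fold change, dKO minus WT, for the 8 peroxisomal and the 24 remaining genes of the set and for all 18013 tested probe sets. The medians are -0.36, -0.10 and 0.03.

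Other genes of the pathway were read from a list of 45, of which 30 were measured. Of these, 2 were lower, 1 was higher and 27 did not pass, where 1.93% of all tested probe sets were lower and 2.54% higher. Their median log2 fold change was -0.09. Both that fell are peroxisomal and act in succession in alpha oxidation, the removal of 1 carbon from branched chains such as phytanic acid. Phyh, the phytanoyl-CoA hydroxylase, had 11.19, 11.39 and 11.31 in dKO and 11.77, 11.81 and 11.86 in WT mice (-0.52 ± 0.09, limma adjusted p = 0.0322). Hacl1, the lyase of the next step, had 7.14, 7.37 and 7.37 in dKO and 7.96, 8.00 and 7.75 in WT mice (-0.61 ± 0.11, limma adjusted p = 0.0385). Neither gene's groups overlapped. The Phyh call held only without dKO mouse 2 among the fits that left out 1 mouse, and the Hacl1 call in none of them, with changes of -0.56 to -0.47 and -0.69 to -0.54. Without the filter on dim probe sets the limma adjusted p was 0.0511 for Phyh and 0.0572 for Hacl1, and with the RNA quality covariate it was 0.198 and 0.204.

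Over the 13 measured peroxisomal genes of that list, 2 were lower, 0 higher and 11 did not pass, and the groups were separated with lower dKO values in 5 and with higher in 1, where the shares over all tested probe sets were 14.8% and 19.5%. Eci3, a peroxisomal isomerase, had 9.82, 9.79 and 9.75 in dKO and 10.17, 10.61 and 10.75 in WT mice (-0.72 ± 0.16, limma adjusted p = 0.0536). The gene that rose was Nudt19, a diphosphatase of CoA known from mouse kidney peroxisomes and listed here with the mitochondrial enzymes. It was therefore not counted among the 13 peroxisomal genes. It had 9.86, 10.02 and 9.96 in dKO and 9.56, 9.34 and 9.29 in WT mice (0.55 ± 0.10, limma adjusted p = 0.0412). That call was lost in each of the 6 fits that left out 1 mouse, where the change stayed between 0.50 and 0.63, without the filter (limma adjusted p = 0.0619) and with the RNA quality covariate (limma adjusted p = 0.172).

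Regulators of the pathway gave 1 higher, 0 lower and 18 that did not pass among 19 measured genes. Over all tested probe sets, 2.54% were higher and 1.93% lower. Ppard, the nuclear receptor PPAR delta, rose with 8.40, 7.96 and 8.55 in dKO and 7.26, 7.60 and 7.49 in WT mice (0.85 ± 0.17, limma adjusted p = 0.0489). The call was lost without any 1 mouse other than dKO mouse 2, after median centring (limma adjusted p = 0.0508) and without the filter (limma adjusted p = 0.0667). With the RNA quality covariate the Ppard change was 0.52 ± 0.13 and the call was lost (limma adjusted p = 0.199). Ppara itself had 8.97, 10.03 and 10.22 in dKO and 10.29, 10.33 and 10.37 in WT mice, without overlap (-0.59 ± 0.31, limma adjusted p = 0.265). The fold change of Ppara was -0.21 without dKO mouse 1, the mouse with the lowest value in most members. A dimmer probe set of Ppara was also separated and lower in dKO (-0.43 ± 0.27, limma adjusted p = 0.341). The dimmest overlapped between the groups (-0.41 ± 0.31, limma adjusted p = 0.431). Sirt3, a mitochondrial deacetylase, had 6.86, 6.97 and 6.99 in dKO and 7.29, 7.32 and 7.32 in WT mice (-0.37 ± 0.08, limma adjusted p = 0.0544). Sirt5, a desuccinylase, and the coactivator Ppargc1a stood at 0.29 ± 0.11 and -0.25 ± 0.10 (limma adjusted p 0.152 and 0.158).

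Lists for the surrounding organelles had 1 gene past the threshold each, where 2.54% of all tested probe sets were higher and 1.93% lower. In the tricarboxylic acid cycle, which burns the acetyl-CoA, 1 of 18 measured genes was higher and 0 lower, with a median of 0.03. Idh2, the NADP-dependent isocitrate dehydrogenase, rose with 8.88, 8.71 and 9.07 in dKO and 7.98, 7.99 and 8.01 in WT mice (0.89 ± 0.11, limma adjusted p = 0.0186), a call kept only without dKO mouse 2 among the fits that left out 1 mouse (0.80 to 0.98). With the RNA quality covariate the Idh2 call was lost (0.76 ± 0.13, limma adjusted p = 0.146). Idh3b, a subunit of the NAD-dependent enzyme, stood at 0.16 ± 0.09 (limma adjusted p = 0.324). Of 15 measured genes of peroxisome assembly and catalase, 1 was lower and 0 higher, with a median of -0.07. The one that fell was catalase, Cat, the matrix enzyme that removes the peroxide made by peroxisomal oxidation, with 12.04, 12.07 and 12.15 in dKO and 12.45, 12.46 and 12.57 in WT mice (-0.41 ± 0.08, limma adjusted p = 0.0484). Its call was lost in each of the 6 fits that left out 1 mouse, where the change stayed between -0.44 and -0.37, and under quantile normalization (limma adjusted p = 0.059), without the filter (limma adjusted p = 0.082) and with the RNA quality covariate (limma adjusted p = 0.222). Pex7, the import receptor of thiolase, stood at -0.22 ± 0.10 (limma adjusted p = 0.194).

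Several features of the samples differed between the groups together with these genes, and their part in the results was not tested unless a value is given. The mean level of 12 crypt and proliferation markers was 8.40 to 8.75 in dKO and 8.08 to 8.19 in WT mice, with 4 markers higher and 0 lower. The mean level of 17 enterocyte markers was 12.77 to 12.86 in dKO and 12.87 to 12.96 in WT mice, with 9 markers separated and lower in dKO and 1 past the threshold. Over all tested probe sets, 2.54% were higher and 1.93% lower by the threshold, and 14.8% were separated and lower in dKO. Adipocyte markers were present in all mice, their mean over 5 genes being 8.62 to 9.13 in dKO and 7.75 to 8.96 in WT mice, while Lep and Cidea were too dim to be tested. Among them Retn, named after its values were seen, had 4.95, 5.81 and 6.13 in dKO and 4.35, 4.80 and 2.98 in WT mice, without overlap (1.58 ± 0.51, limma adjusted p = 0.113). Lipe was separated in the other direction (-0.23 ± 0.11, limma adjusted p = 0.219), and Adipoq, Cidec and Fabp4 overlapped between the groups. Fibroblast markers had a positive fold change in 7 of 8 genes (median 0.45), with means of 8.61 to 8.96 in dKO and 8.14 to 8.75 in WT mice. Macrophage and dendritic cell markers were likewise positive in 7 of 8 (median 0.36), with means of 7.49 to 8.27 in dKO and 7.16 to 7.77 in WT mice. In both lists 0 genes passed limma's adjusted threshold. An unadjusted limma p under 0.05 was found for 3 fibroblast markers, 2 higher and 1 lower, and for 1 macrophage marker, which was higher. The lower fibroblast marker, Fbln1, was separated between the groups (-0.53 ± 0.13, limma adjusted p = 0.0627). At an unadjusted limma p under 0.05 the share of all tested probe sets was 27.1% in either direction. The means of 7 smooth muscle, 6 lymphocyte and plasma cell, 10 Paneth and goblet cell and 4 ileum markers overlapped between the groups, with medians of 0.04, 0.07, -0.07 and -0.03. Of these 4 lists only the ileum markers held a gene past the threshold, Cubn (named after its values were seen), which fell by 0.78 (limma adjusted p = 0.0186). Fabp6, Slc10a2 and Fgf15, which define the ileum, did not exceed 2.70 on any array. The 3′ to 5′ difference of the Gapdh and Actb control transcripts, a sign of RNA quality, was 0.41 to 0.61 in dKO and 0.35 to 0.49 in WT mice, and with it as a covariate the median of the 8 peroxisomal genes was -0.29 and 0 members passed.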

How the data were processed

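Jejunal RNA (500 ng per mouse, per the labels' protocols) of 3 dKO and 3 WT mice was measured on 1 array each. The deposited values are log2 levels per probe set. Per the submitters' processing notes, the authors used GCRMA 2.18.0, with settings not stated in these sources. GCRMA models background from probe sequence and can compress differences of dim probe sets. The log2 scale was read from the values. The number of arrays limits the precision. The labels name separate mice.

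Of 45101 probe sets, 34958 had 1 gene symbol, updated through GRCm38.p6 gene identifiers. Control probe sets (64) were left out, and those above 4 on at least 3 arrays were kept (18013). The test was limma's lmFit and eBayes (limma 3.58.1, R 4.3.3) without covariates, two-sided, dKO minus WT, with Benjamini-Hochberg adjustment over all 18013 and a threshold of 0.05. The script was tested on simulated data. Errors after fold changes are limma's SE. Values on every array are given for members that passed, had separated groups or had 1 of the 2 smallest p-values of their role. From the other lists, genes past the threshold, those with the smallest p (4 or 2 per list) and Ppara are named. Members and lists were chosen with earlier results of these data known. Alternatives covered the filter on dim probe sets, quantile normalization or median centring, raising values under 4 to it, a variance trend, weighting of arrays, a block for mouse number, an RNA quality covariate, the second brightest probe set and leaving out each mouse. No scan batch is given in the labels. Figures were drawn with matplotlib 3.10.9.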

Additional observations from a re-analysis of the deposited data

How the results depend on the processing

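All 32 members lay above the filter on every array, and the precision was limited by 3 mice per group. Over all tested probe sets, the counts higher and lower were 458 and 347. They became 265 and 207 without the filter, 918 and 727 with a variance trend, and 710 and 506 with the stricter filter. With the 3′ to 5′ covariate they were 5 and 12, and with the mouse number as a replicate block 2 and 11. Leaving out 1 mouse gave 11 to 196 higher and 21 to 239 lower. Members lower, 1 in the fit as reported, were 5 with the trend, 4 with the stricter filter and 0 without the filter, with the covariate and with the block, and 0 to 0 when 1 mouse was left out (0 higher throughout). The member median of -0.13 lay between -0.16 and -0.07 without 1 mouse and at -0.19 with the block. The peroxisomal median, a result added after the values were seen, was -0.36, and -0.29 with the covariate, -0.26 with the second brightest probe sets and -0.36 to -0.33 without 1 mouse. Other pathway genes (also added), 2 lower and 1 higher, became 8 lower with the trend and with the stricter filter, 5 with array weights, and 0 lower and 0 higher without the filter, with the covariate and with the block; leaving out 1 mouse gave 0 to 3 lower and 0 higher. Cpt1a, at 0.07 and never past the threshold, turned to -0.15 with the block, -0.06 without WT mouse 4 and -0.02 without dKO mouse 2 (-0.06 to 0.20 over the fits without 1 mouse). Of 390 results for 26 single genes under 15 alternatives, 3 changed sign (all Cpt1a), 61 lost a call and 7 gained one. Mice of the same number were not shown to be paired: their deviations from the group means correlated at 0.02 for mice 1 and 0.30 for mice 3, and mice WT 4 and dKO 2 had no partner, so the block rests on 4 mice. With the block the calls of Crot, Phyh, Hacl1, Nudt19, Ppard, Idh2 and Cat were all lost (limma adjusted p 0.133 to 0.232). The causes of these changes were not tested.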
